A study of Mus musculus with 8 samples.

Results

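The PERK-ATF4 and amino acid response was followed through 35 genes in Hepa1-6, a mouse hepatoma cell line that the labels place on the C57BL/6 strain. The genes form a fixed list of PERK, ATF4, its partner factors and its targets in amino acid synthesis, amino acid transport and tRNA charging, and all 35 were found among the 54446 genes counted. Of these, 33 had enough reads to be tested beside 15613 genes in all. The cells fell into 4 groups of 2 bulk mRNA libraries. One group received trimethylamine N-oxide (TMAO, an oxidised amine made from dietary choline) at 50 µM with 50 ng/ml of TNF-α, a cytokine of inflammation. One received TNF-α alone at 50 ng/ml, one TMAO alone at 50 µM, and one was an untreated control. Treatment lasted 24 h, and all cells grew in DMEM with fetal bovine serum. For the combined group 1 label gives TMAO as both agents, but its titles carry the codes of both single treatments and the protocol gives TNF-α as the second agent. The line is 1 tumour-derived line, and the labels do not say that libraries 14 and 16 of a group came from separate cultures, so p-values measure only the spread between libraries, which may be technical.

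PERK (Eif2ak3) is a kinase of the endoplasmic reticulum membrane that phosphorylates the initiation factor eIF2α when unfolded protein builds up. Related kinases do so on amino acid shortage, double-stranded RNA or haem deficiency. Phosphorylated eIF2α slows most translation but favours translation of the Atf4 mRNA, and ATF4 protein then binds composite C/EBP-ATF elements in genes that make, import and charge amino acids. Because this control acts largely on protein, mRNA levels of PERK and ATF4 need not show the activity of the pathway, whereas the target mRNAs are its usual readout. Hepatocytes and hepatoma cells use the response for secretory load and amino acid supply.

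The promoters were read for the letters through which such factors are known to act. RefSeq promoter windows (build GRCm38.p6, 250 bases before to 50 after a gene start) were at hand for 29 of the 35 members. The composite element was searched as TGATGNAA on both strands, and 9 of the 29 members (31.03%) held it, against 4.511% of all 27025 genes with a window. Many members are on the list as known ATF4 targets, so the difference is a description. The members that held it were Aars, Asns, Atf3, Chac1, Fgf21, Gars, Nupr1, Trib3 and Vldlr. Windows of 40 bases around it are shown for 5 targets described below, read 5′ to 3′ on the strand that carries the motif, with the motif in capitals. They lie at chr6:7693209-7693248 (Asns, minus strand), chr6:55037955-55037994 (Gars, minus strand), chr7:126625557-126625596 (Nupr1, plus strand), chr1:191183420-191183459 (Atf3, plus strand) and chr2:119351033-119351072 (Chac1, minus strand).
Asns: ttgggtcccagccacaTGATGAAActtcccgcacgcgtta
Gars: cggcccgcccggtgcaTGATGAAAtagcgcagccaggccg
Nupr1: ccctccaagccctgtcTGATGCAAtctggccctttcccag
Atf3: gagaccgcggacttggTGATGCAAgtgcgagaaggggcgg
Chac1: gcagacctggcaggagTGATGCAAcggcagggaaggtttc
Asns and Gars share the 8 letters TGATGAAA, and Nupr1, Atf3 and Chac1 share TGATGCAA. Of the 5 genes, Nupr1 was called with TNF-α in the fit to all libraries below, and the other 4 were not.

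Ddit4 and Gdf15 lacked the composite element in their windows and held ACGTG, the core that hypoxia-inducible factors and several bZIP and bHLH factors are known to bind. ACGTG, also searched on both strands, stood in 11 of 29 member genes (37.93%) and in 21.78% of all genes with a window. The 37-base windows on the minus strand at chr10:59951937-59951973 and chr8:70632157-70632193 are shown with ACGTG in capitals, since Ddit4 has the smallest p of the members in 5 of the 8 contrasts and Gdf15 has the largest decrease among members once 1 library is left out.
Ddit4: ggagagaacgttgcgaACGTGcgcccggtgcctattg
Gdf15: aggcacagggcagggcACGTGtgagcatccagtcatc
A match is only a string of letters in this window, and the Sesn2 window held neither string. The window table was not matched for Wars.

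The members ranged widely in level. By the deposited TPM, a level scaled to transcript length and library, Phgdh, the first enzyme of serine synthesis, averaged 1255 TPM over the 8 libraries. Gars and Nars, which charge glycine and asparagine tRNAs, averaged 410 and 351 TPM. The glutamine carrier Slc38a2 averaged 342 TPM, the mitochondrial serine hydroxymethyltransferase Shmt2 averaged 325 TPM and Atf4 averaged 249 TPM. In all, 13 members averaged over 100 TPM, 19 lay between 10 and 100 TPM, and the glutathione-degrading enzyme Chac1 averaged 7.20 TPM. Genes known for strong stress stood lower: Trib3, a pseudokinase that restrains ATF4, averaged 10.5 TPM and Ddit3 (CHOP), the pro-apoptotic partner factor, averaged 47.4 TPM. Fgf21 and Stc2, a hepatokine and a secreted glycoprotein that ATF4 is known to induce, had 0 counts in every library, where 3 counts would equal 0.0993 to 0.124 CPM (counts scaled to library size). Atf4 ran from 179 to 305 TPM, and its pairs differed more in TPM than in CPM: it averaged 225 ± 57.8 TPM in TMAO libraries and 226 ± 66.8 TPM in control libraries (SD, n = 2 each).

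**Figure D1:**
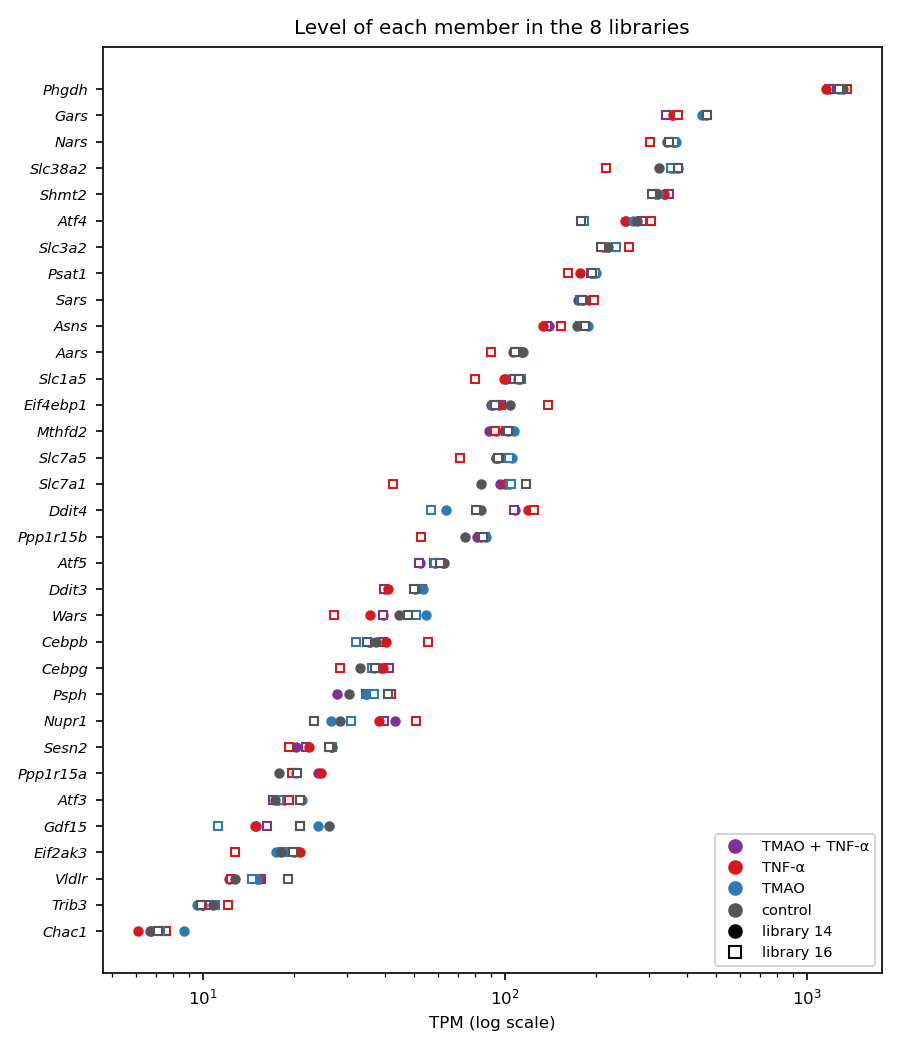
Level of each of the 33 detected members in the 8 libraries as TPM on a log scale, with members ranked by their mean. Colours mark the groups, filled circles library 14 and open squares library 16. Phgdh stands at 1255 TPM and Chac1 at 7.20 TPM on average, and Fgf21 and Stc2, listed at 0, are not drawn.

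The library TNF-α 16 stood apart from the other 7. Totals ran from 24736746 counts in TNF-α 16 to 30488605 in TMAO 16. Across all tested genes TNF-α 16 had a median Pearson correlation of 0.967 with the other libraries, against 0.981 to 0.983 for each of the others. The members differed between TNF-α 16 and TNF-α 14 with an SD of 0.41 on the log2 scale, against 0.0775 in the combined pair, 0.0909 in the TMAO pair and 0.131 in the control pair. Over all genes these SDs were 0.813 in the TNF-α pair, 0.367 in the combined pair, 0.352 in the TMAO pair and 0.413 in the control pair. No member lay more than 1.5-fold apart in the combined, TMAO and control pairs, against 8.73%, 9.31% and 11.7% of all genes. In the TNF-α pair 9 of 33 members (27.27%) did so, against 37.55% of all genes. All genes were not matched to the members for level, so these values do not show that members vary less than genes of like level. The difference varied with exon length: Slc7a1, an arginine carrier with 11530 exon bases, was lower in TNF-α 16 by 0.89 on the log2 scale, whereas the translation inhibitor Eif4ebp1, with 2196 exon bases, was higher by 0.89. Spearman's rho between exon length and the log2 difference of library 16 minus 14 was -0.77 over the 33 members in the TNF-α group and -0.37 over all genes with a length. In the control group it was 0.699 over the members and 0.255 over all genes. These are descriptions over genes of the same libraries. The part of this length pattern in any member's value was not tested. Values that leaving out TNF-α 16 moved by over 1.5 times are given both ways for members given a fold change of their own.

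**Figure D2:**
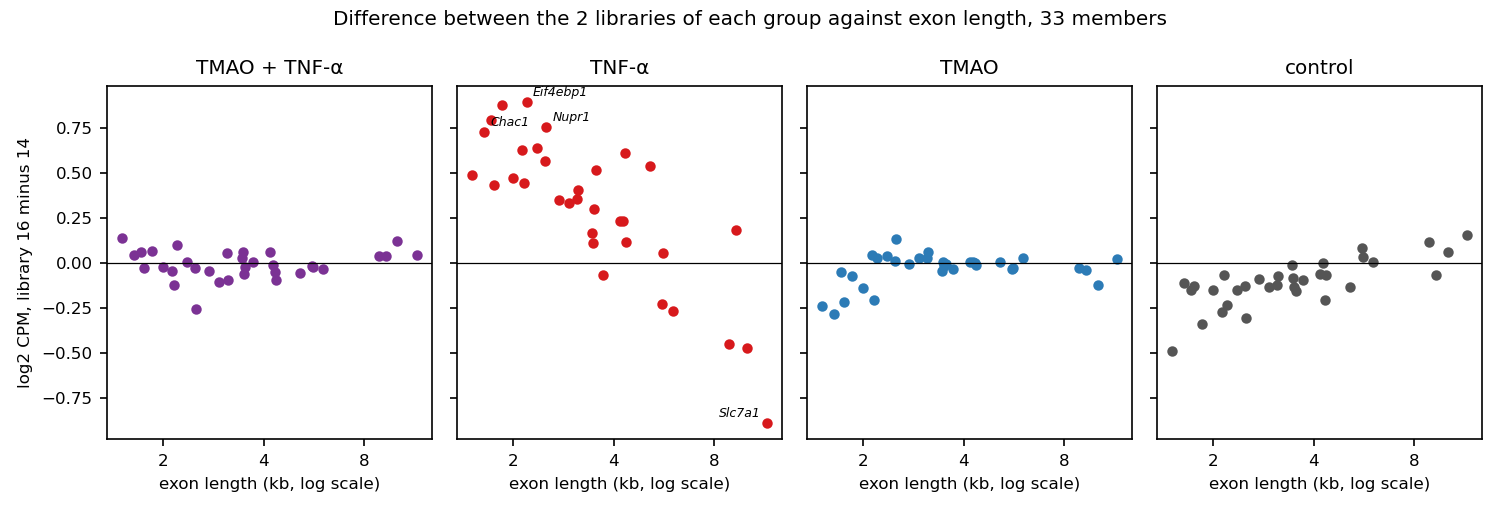
Log2 CPM of library 16 minus library 14 against exon length (kb, log scale) for the 33 tested members, 1 panel per group. In the TNF-α group the differences run from 0.89 (Eif4ebp1) to -0.89 (Slc7a1) with increasing length, and the points of the combined and TMAO groups lie near 0.

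TNF-α was compared with no TNF-α first, averaged over cells with and without TMAO, since this contrast uses all 8 libraries. With TNF-α the growth-restraining gene Ddit4 and the stress factor gene Nupr1 rose, and the tRNA synthetase gene Wars and the nutrient sensor gene Sesn2 fell. These 4 of 33 members (12.1%) were called, against 9.2% of all 15613 genes, with 2 higher, against 5.35% of genes, and 2 lower, against 3.86%. A gene was called when its adjusted p was under 0.05, by edgeR's quasi-likelihood test and the Benjamini-Hochberg method over all tested genes. The median log2 fold change was -0.03 over the members and 0.00 over all genes. The share called is thus near the background, and the members had no common direction in this fit. In bulk RNA, fewer cells that express a gene and less RNA per cell cannot be told apart.

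Ddit4 (REDD1, ENSMUSG00000020108.4, chromosome 10), which restrains the growth kinase mTORC1, had 90.6 and 88.7 CPM in combined libraries and 99.7 and 135 CPM in TNF-α libraries, against 55.8 and 48.1 CPM in TMAO libraries and 74.8 and 68.6 CPM in control libraries. Every library with TNF-α exceeded every library without it. The mean was 103 ± 21.3 CPM with TNF-α and 61.8 ± 12.1 CPM without it (SD, n = 4 each). The log2 fold change was 0.75 ± 0.11 (SE), a 1.68-fold rise, with an adjusted p of 0.00784 in edgeR's test. Without TNF-α 16 the log2 fold change of Ddit4 was 0.63 ± 0.06. Without TMAO 16 the adjusted p was 0.0513.

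Nupr1 (ENSMUSG00000030717.9, chromosome 7), a small chromatin-associated protein of the stress response, had 20.6 and 17.3 CPM in combined libraries and 19.5 and 32.96 CPM in TNF-α libraries. TMAO libraries had 11.5 and 12.6 CPM and control libraries 14.1 and 11.4 CPM. The 4 libraries with TNF-α lay above the 4 without, and TNF-α 16 was the highest. The log2 fold change was 0.84 ± 0.18 (SE), or 1.79-fold, with an adjusted p of 0.0311. It was 0.63 ± 0.09 without TNF-α 16.

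Wars (ENSMUSG00000021266.16, chromosome 12), which charges tryptophan tRNA and is known in human cells to be induced by interferon-γ, had 67.8 and 69.2 CPM in combined libraries and 66.7 and 74.9 CPM in TNF-α libraries. It had 95.9 and 92.8 CPM in TMAO libraries and 90.2 and 89.5 CPM in control libraries. The groups did not overlap, and TNF-α 16 was the closest of the TNF-α libraries to those without. Wars fell by 0.40 ± 0.07 (SE) on the log2 scale, with an adjusted p of 0.0131.

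Sesn2 (ENSMUSG00000028893.8, chromosome 4), a leucine sensor that holds mTORC1 in check, had 33.02 and 34.4 CPM in combined libraries, 36.4 and 39.2 CPM in TNF-α libraries, 43.7 and 43.9 CPM in TMAO libraries and 45.9 and 43.3 CPM in control libraries. Again no library with TNF-α reached any library without it. Sesn2 fell by 0.31 ± 0.07 (SE), with an adjusted p of 0.0383, and by 0.34 ± 0.06 without TNF-α 16. Ddit4 and Sesn2, which both restrain mTORC1, thus changed in opposite directions. The calls of Nupr1, Wars and Sesn2 ended when any 1 control, TMAO or combined library was left out, at adjusted p from 0.0763 to 0.215, with log2 fold changes of 0.78 to 0.93, -0.41 to -0.38 and -0.32 to -0.28.

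**Figure D3:**
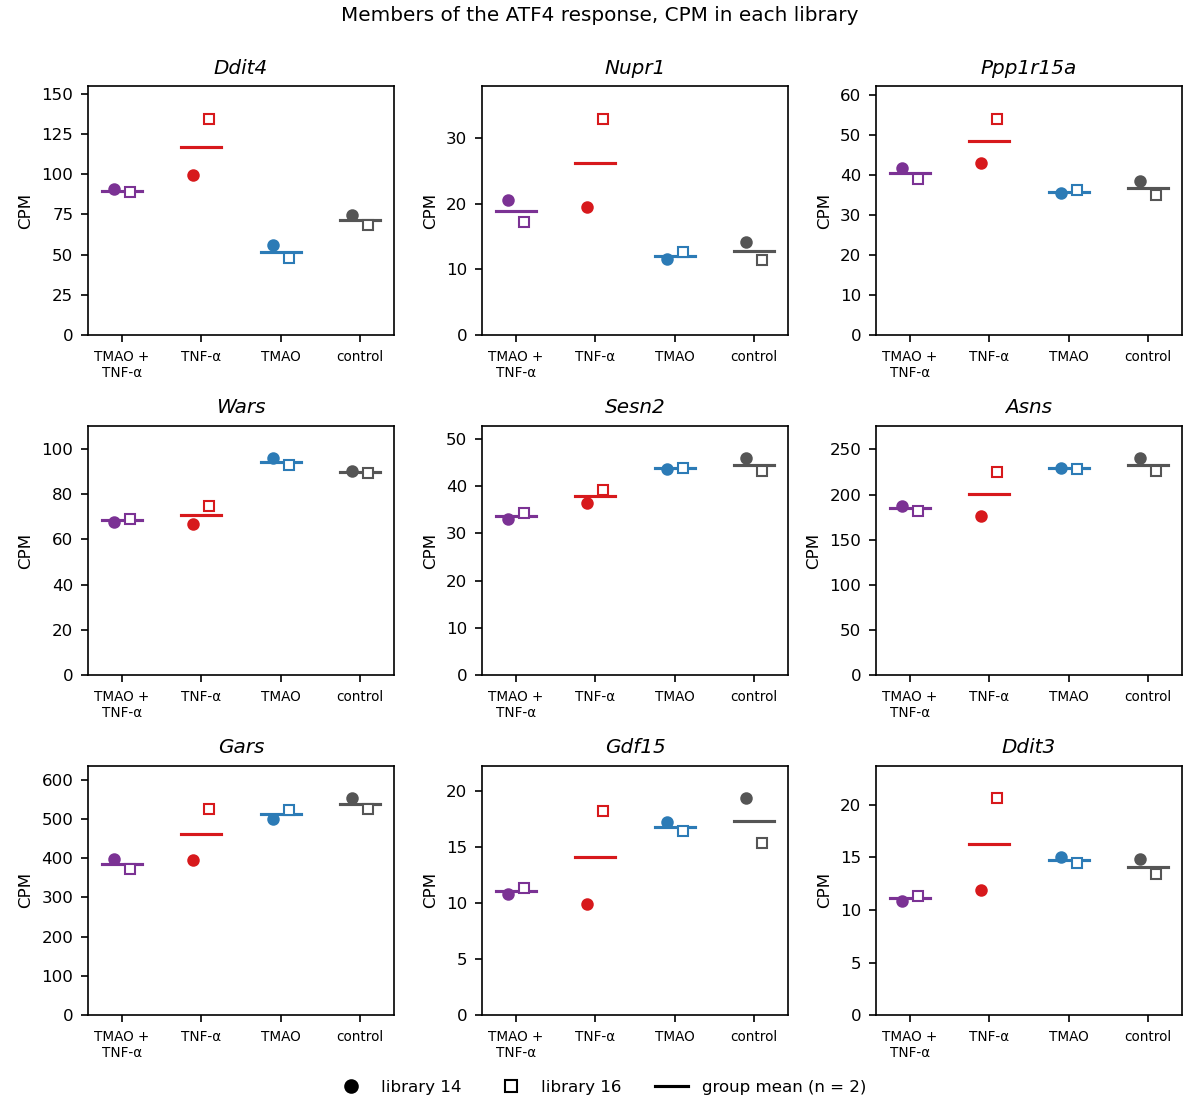
CPM in each library for 9 members, with combined treatment, TNF-α, TMAO and control from left to right. Filled circles are library 14, open squares library 16 and bars the mean of 2 libraries. Ddit4, Nupr1 and Ppp1r15a are higher in all 4 libraries with TNF-α, Wars, Sesn2 and Asns are lower in all 4, and TNF-α 16 departs from TNF-α 14 for Gars, Gdf15 and Ddit3.

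Among the sensor and the factors, Eif2ak3 mRNA had 33.6 and 32.8 CPM in combined libraries, 34.4 and 28.6 CPM in TNF-α libraries, 29.3 and 29.9 CPM in TMAO libraries and 31.8 and 31.9 CPM in control libraries. Its log2 fold change with TNF-α was 0.08 ± 0.08 (SE), with an adjusted p of 0.721, and the groups overlapped. With TNF-α 16 left out it was 0.14 ± 0.06. Atf4 had 234 and 234 CPM in combined libraries and 233 and 363 CPM in TNF-α libraries, against 254 and 261 CPM in TMAO libraries and 277 and 249.7 CPM in control libraries. In CPM TNF-α 16 alone lay above all of the others, and the other 3 libraries with TNF-α lay below all 4 without. In TPM this order was not kept. Atf4 had 252 and 285 TPM in combined libraries and 250 and 305 TPM in TNF-α libraries. It had 265 and 184 TPM in TMAO libraries and 273 and 179 TPM in control libraries. The log2 fold change of Atf4 was 0.02 ± 0.14 with all libraries and -0.16 ± 0.05 without TNF-α 16, where the adjusted p was 0.0238.

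Ddit3 had 10.9 and 11.3 CPM in combined libraries, 11.9 and 20.6 CPM in TNF-α libraries, 15.03 and 14.5 CPM in TMAO libraries and 14.9 and 13.4 CPM in control libraries. Its counts may be incomplete, since its exons overlap Mars on the opposite strand and a second gene identifier of the same name, and its TPM relative to its counts was 1.88 times that of the median gene. Atf3, a stress-induced repressor, had 17.0 and 15.6 CPM in combined libraries, 17.4 and 23.7 CPM in TNF-α libraries, 20.1 and 17.4 CPM in TMAO libraries and 20.4 and 19.5 CPM in control libraries. Ddit3 and Atf3 showed the CPM layout of Atf4, with TNF-α 16 highest and the other 3 TNF-α-treated libraries lowest, for Atf3 by a narrow margin. Their log2 fold changes with TNF-α were -0.11 ± 0.17 and -0.08 ± 0.12 with all libraries, where neither was called, and -0.33 ± 0.08 and -0.20 ± 0.08 without TNF-α 16. Cebpb, the liver acute-phase factor that partners ATF4, had 10.03 and 11.03 CPM in combined libraries, 13.5 and 19.0 CPM in TNF-α libraries, 10.5 and 8.92 CPM in TMAO libraries and 11.5 and 8.17 CPM in control libraries. Fitted on the TNF-α and control libraries alone, the log2 fold change of Cebpb was 0.72 ± 0.28, with an adjusted p of 0.586 in edgeR's test. With no filter on low counts Cebpb was called higher for TNF-α against control and for TNF-α averaged over TMAO. Cebpb overlaps Tmem189 on the opposite strand over 20.7% of its exons, and whether the counting used strand is not stated, so its counts are uncertain. Atf5, a related factor under the same translational control, had 36.5 and 35.9 CPM in combined libraries, 38.9 and 53.9 CPM in TNF-α libraries, 46.8 and 42.6 CPM in TMAO libraries and 47.5 and 42.8 CPM in control libraries. TNF-α 16 was again the highest and the other 3 libraries with TNF-α the lowest, at a log2 fold change of -0.13 ± 0.12 over all libraries and -0.26 ± 0.06 without TNF-α 16. Atf5 overlaps Nup62 on the opposite strand over 4.11% of its exons. Cebpg, a dimer partner of ATF4, stayed between 74.8 and 81.7 CPM in all 8 libraries.

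Of the feedback genes, Ppp1r15a (GADD34), which directs dephosphorylation of eIF2α, was higher in CPM in every library with TNF-α. It was singled out after its values were seen. It had 41.9 and 39.0 CPM in combined libraries, 43.0 and 54.2 CPM in TNF-α libraries, 35.6 and 36.3 CPM in TMAO libraries and 38.5 and 35.2 CPM in control libraries. The log2 fold change was 0.28 ± 0.10 with an adjusted p of 0.137, so it was not called in the fit to all libraries. In TPM the groups of Ppp1r15a overlapped. Combined 16 and TNF-α 16 each had 19.8 TPM, and combined 14 and TNF-α 14 had 24.2 and 24.7 TPM. Libraries without TNF-α had 17.9 to 20.6 TPM. Trib3 had 9.52 and 9.22 CPM in combined libraries, 9.56 and 14.8 CPM in TNF-α libraries, 9.21 and 9.51 CPM in TMAO libraries and 11.1 and 9.20 CPM in control libraries. Chac1 had 5.39 and 5.57 CPM in combined libraries, 4.63 and 7.69 CPM in TNF-α libraries, 6.83 and 5.60 CPM in TMAO libraries and 5.85 and 5.41 CPM in control libraries. For Trib3 and Chac1 the groups overlapped and TNF-α 16 was the highest library. Eif4ebp1, an ATF4 target that blocks cap-dependent translation, had 84.3 and 90.2 CPM in combined libraries, 89.4 and 166 CPM in TNF-α libraries, 87.97 and 89.7 CPM in TMAO libraries and 105 and 89.4 CPM in control libraries. The 166 CPM of TNF-α 16 stood alone. Eif4ebp1 was not called, nor was Ppp1r15b, the constitutive subunit of the eIF2α phosphatase.

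Amino acid synthesis genes were not called in the fit to all libraries, at log2 fold changes of -0.26 to 0.13. Asns, which makes asparagine and is the classic ATF4 target, had 187 and 182 CPM in combined libraries, 177 and 225.4 CPM in TNF-α libraries, 229 and 228 CPM in TMAO libraries and 240.0 and 225.5 CPM in control libraries. The highest library with TNF-α, TNF-α 16, was barely below the lowest without it. The log2 fold change was -0.26 ± 0.09 with an adjusted p of 0.169. The serine synthesis genes Phgdh, Psat1 and Psph and the folate-cycle genes Shmt2 and Mthfd2 had overlapping groups. Psph overlaps Cct6a on the opposite strand over 10.4% of its exons, so its counts are uncertain, as for Cebpb.

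The 5 transport genes were not called either and had log2 fold changes of -0.21 to 0.07. Slc7a5, the catalytic subunit of the leucine carrier LAT1, had 144 and 144 CPM in combined libraries, 143 and 136 CPM in TNF-α libraries, 165 and 161 CPM in TMAO libraries and 155 and 145 CPM in control libraries. In CPM every library with TNF-α was lower than every library without it, and the log2 fold change was -0.14 ± 0.07 with an adjusted p of 0.304. In TPM the groups of Slc7a5 overlapped, at 94.8 and 96.5 TPM in combined libraries and 93.8 and 95.0 TPM in control libraries. Its partner chain Slc3a2, the neutral amino acid carriers Slc38a2 and Slc1a5, and Slc7a1 had overlapping groups. Among the 5 tRNA synthetase genes Wars was the 1 called. Gars had 397 and 372 CPM in combined libraries, 397 and 525.5 CPM in TNF-α libraries, 501 and 523 CPM in TMAO libraries and 553 and 525.9 CPM in control libraries. The combined libraries and TNF-α 14 lay below all libraries without TNF-α, and TNF-α 16 lay among them. Gars had a log2 fold change of -0.32 ± 0.11 with an adjusted p of 0.144. Aars, Sars and Nars, for alanine, serine and asparagine, had log2 fold changes of -0.06 to 0.09.

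Of the secreted and surface genes, Gdf15, a hormone of cell stress that acts on appetite, had 10.8 and 11.3 CPM in combined libraries and 9.93 and 18.2 CPM in TNF-α libraries. TMAO libraries had 17.2 and 16.4 CPM and control libraries 19.3 and 15.3 CPM. In CPM the combined libraries and TNF-α 14 were the 3 lowest, and TNF-α 16 fell inside the range without TNF-α. This order was not kept in TPM, where TMAO 16, a library without TNF-α, was the lowest at 11.21 TPM. Combined libraries had 14.99 and 16.37 TPM and TNF-α libraries 14.92 and 21.04 TPM. TMAO 14 had 24.08 TPM and control libraries 26.27 and 20.95 TPM. The log2 fold change of Gdf15 in the fit to counts was -0.45 ± 0.19 with an adjusted p of 0.248. It was -0.70 ± 0.09 when TNF-α 16 was left out. Vldlr, a lipoprotein receptor, had 33.7 and 36.6 CPM in combined libraries, 42.1 and 30.4 CPM in TNF-α libraries, 32.2 and 29.7 CPM in TMAO libraries and 37.4 and 39.1 CPM in control libraries. The groups of Vldlr overlapped.

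**Figure D4:**
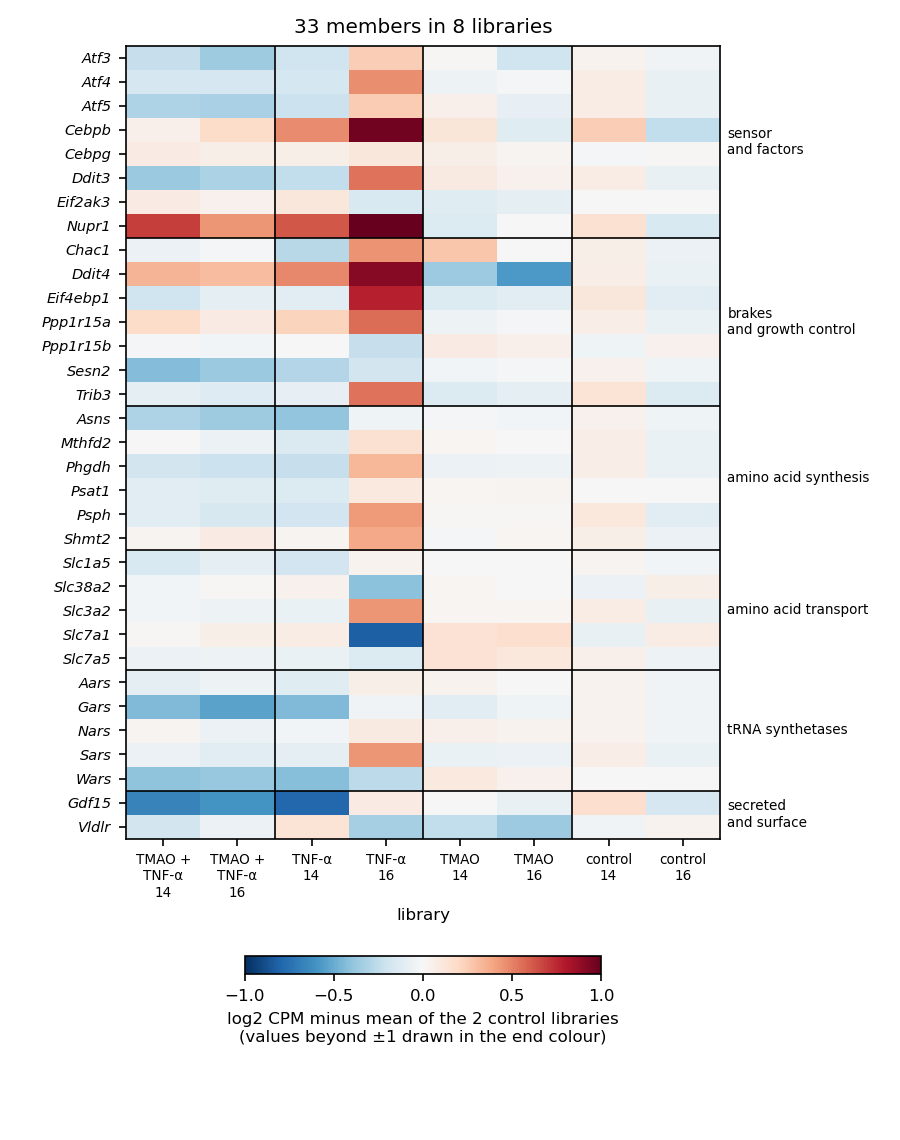
Log2 CPM of each tested member in each library, minus the mean of the 2 control libraries, with members grouped by role and the colour scale ending at 1 and -1. TNF-α 16 has a median over the 33 members of 0.15, against -0.12 in TNF-α 14, -0.09 and -0.06 in the combined libraries and about 0 in the TMAO libraries.

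Counting members by library order in CPM gave the same picture. The order of Slc7a5, Ppp1r15a, Atf4 and Gdf15, among others, was not kept in TPM. With all 8 libraries, 3 of 33 members (Ddit4, Nupr1 and Ppp1r15a) were higher in each of the 4 libraries with TNF-α than in each of the 4 without, against 9.81% of all genes. Another 4 members (Wars, Sesn2, Asns and Slc7a5) were lower, against 10.2% of all genes. Both shares are close to the background, at 9.09% and 12.1% of the members. With TNF-α 16 left out, 4 members were higher, against 17.6% of genes, and 15 members (45.5%) were lower, against 19.5% of genes. The 15 were Wars, Gars and Aars of the synthetases, Asns, Phgdh, Psat1 and Psph of the enzymes, Slc1a5 and Slc7a5 of the transporters, the factors Atf3, Atf4, Atf5 and Ddit3, and Sesn2 and Gdf15.

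The fit without TNF-α 16 called 15 of 33 members for TNF-α averaged over TMAO (45.5%), against 25% of 16377 genes. In it 12 members (36.4%) were lower, against 12.8% of genes, and 3 members (9.09%) were higher, against 12.2% of genes. The 12 lower members were Gdf15, Wars, Gars, Asns, Sesn2, Ddit3, Atf5, Phgdh, Slc1a5, Atf4, Psat1 and Slc7a5, and the 3 higher were Ddit4, Nupr1 and Ppp1r15a. The decreases were small: Gdf15 fell by 0.70 ± 0.09 (SE) on the log2 scale, Wars by 0.45 ± 0.05, Gars by 0.43 ± 0.05, Asns by 0.36 ± 0.04, Ddit3 by 0.33 ± 0.08 and Slc7a5 by 0.13 ± 0.04. The median was -0.09 over the members and -0.01 over all genes. The genes behind the shares of all genes were not matched to the members for expression level. The part of level in the difference was not tested. Phgdh, Psat1, Slc1a5, Slc7a5 and Ppp1r15a are named here after their values were seen.

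Leaving out either TNF-α library removes the widest pair, so a call gained in this way is no check on the member. When TNF-α 14 was left out in place of TNF-α 16, 19 members were called, against 45.6% of genes, and 9 were called in the same direction in both cases. Those 9 were Ddit4, Nupr1 and Ppp1r15a, which were higher, and Asns, Gars, Gdf15, Sesn2, Slc7a5 and Wars, which were lower. Atf4 was called lower without TNF-α 16 and higher without TNF-α 14, so its direction rests on which TNF-α library is kept. Both fits share all of the other libraries. The share of all genes called in the same direction in both was not counted, so the 9 are only a description.

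**Figure D5:**
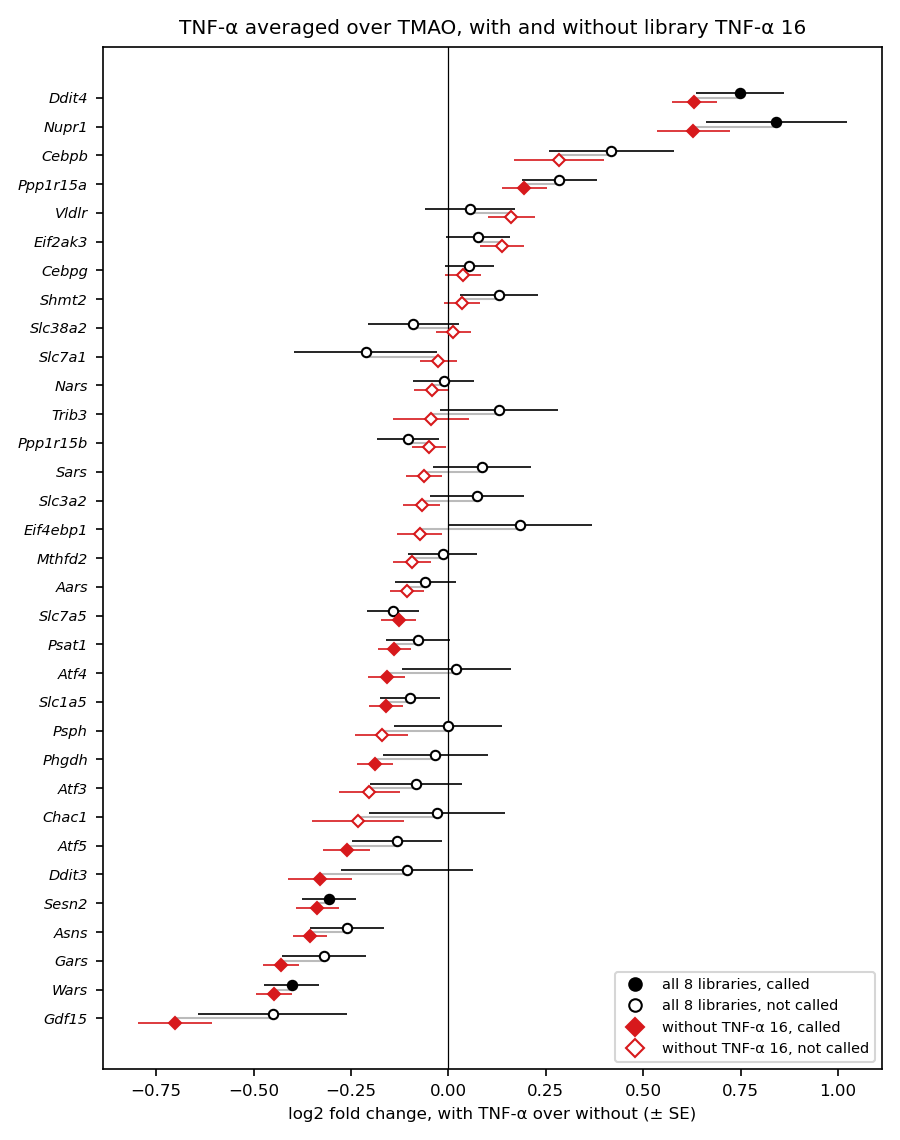
Log2 fold change with TNF-α over without, averaged over TMAO, for the 33 tested members, with all 8 libraries (black circles) and without TNF-α 16 (red diamonds). Filled symbols were called, open ones were not, and bars are ± 1 SE. Ddit4 and Nupr1 lie at 0.75 and 0.84 with all libraries, and Gdf15 moves to -0.70 without TNF-α 16.

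The combined treatment was then compared with TMAO alone, which gives TNF-α its comparison without TNF-α 16 or any control library when these 4 libraries are fitted alone. In the fit to all libraries 1 of 33 members was called, against 3.64% of all genes: Ddit4 rose by 0.79 ± 0.16 (SE), or 1.73-fold, with an adjusted p of 0.0488. Leaving out any 1 control, TMAO or combined library ended that call, at adjusted p from 0.109 to 0.366. Fitted on the 4 libraries alone, 20 of 33 members (60.6%) were called, against 31.9% of 14950 genes. Of these, 15 (45.5%) were lower, against 16.1% of genes, and 5 (15.2%) were higher, against 15.9% of genes. The 5 higher members were Ddit4, Nupr1, Vldlr, Ppp1r15a and Eif2ak3. Here too the shares of all genes were not matched to the members for level.

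In those 4 libraries the Ddit4 log2 fold change was 0.81 ± 0.05 and that of Nupr1 was 0.66 ± 0.09. Gdf15 fell by 0.58 ± 0.09, Wars by 0.44 ± 0.04, Gars by 0.40 ± 0.03, Ddit3 by 0.39 ± 0.09, Sesn2 by 0.36 ± 0.06 and Asns by 0.29 ± 0.03. Atf5 fell by 0.29 ± 0.06, Atf4 by 0.12 ± 0.03, Phgdh by 0.13 ± 0.02 and Psat1 by 0.12 ± 0.03. All 15 members called without TNF-α 16 were called in the same direction here, in fits that share these 4 libraries. Eif2ak3 was higher by 0.18 ± 0.06. Trib3, Chac1, Atf3, Shmt2, Mthfd2, Psph and 7 other members were not called. The spread in this fit comes from these 4 libraries only, whose pairs had the smallest member SDs of the study, 0.0775 and 0.0909. In the fit of all 4 groups without TNF-α 16, this contrast called 10 members, against 16% of genes.

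Each agent was also set against untreated cells. With TNF-α alone against control no member was called, while 4.05% of all genes were. edgeR gave 6 of 33 members an unadjusted p under 0.05, against 2374 of 15613 genes. DESeq2 called 2, Ddit4 and Nupr1, both higher, against 6.15% of genes. The log2 fold changes were 0.71 ± 0.16 for Ddit4 (adjusted p of 0.0647), 1.04 ± 0.25 for Nupr1 (adjusted p of 0.0861) and -0.34 ± 0.10 for Wars (adjusted p of 0.139). Without TNF-α 16 they were 0.48 ± 0.09 for Ddit4, 0.61 ± 0.14 for Nupr1 and -0.43 ± 0.07 for Wars. With both agents against control no member was called, against 3.49% of all genes. edgeR gave 4 of 33 members an unadjusted p under 0.05, against 2110 of 15613 genes. DESeq2 called 2, Sesn2 and Wars, both lower, against 5.76% of genes. Sesn2 was at -0.40 ± 0.10 (adjusted p of 0.089), Wars at -0.39 ± 0.10 (adjusted p of 0.0977) and Gars at -0.49 ± 0.15 (adjusted p of 0.186). Fitted on the combined and control libraries alone, 8 members were called, against 15.9% of 14936 genes: Ddit4 and Nupr1 were higher, and Atf5, Asns, Sesn2, Gdf15, Gars and Wars were lower. Without TNF-α 16, TNF-α against control called 8 members, against 12.9% of genes and with TNF-α 14 as its 1 treated library, and both agents against control called 11, against 18.4% of genes. These comparisons share control libraries.

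TMAO alone against control called no member, and 0% of all genes. The member with the smallest p was Ddit4, at 55.8 and 48.1 CPM in TMAO libraries against 74.8 and 68.6 CPM in control libraries. Both TMAO libraries lay below both control libraries, and the log2 fold change was -0.47 ± 0.16 (SE), with an unadjusted p of 0.0229 and an adjusted p of 1 in edgeR's quasi-likelihood test. It was the only member with an unadjusted p under 0.05, against 184 of 15613 genes, and DESeq2 called none. Without TNF-α 16, which narrows the shared spread, Ddit4 was called lower with TMAO at an adjusted p of 0.0375, among 9 of 16377 genes (0.055%), and without TNF-α 14 its adjusted p was 0.0291. Vldlr and Slc7a5 had the next smallest p, at -0.31 ± 0.16 and 0.12 ± 0.09. For the other members TMAO and control differed little: Asns was at -0.02 ± 0.13, Sesn2 at -0.03 ± 0.10, Atf4 at -0.03 ± 0.20 and Ddit3 at 0.06 ± 0.24.

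TMAO averaged over TNF-α likewise called no member and 0% of all genes, and DESeq2 called none. edgeR gave 1 of 33 members an unadjusted p under 0.05, against 453 of 15613 genes. That member was again Ddit4, at -0.43 ± 0.11 (SE), an unadjusted p of 0.0071 and an adjusted p of 0.66, and at -0.31 ± 0.06 with an adjusted p of 0.111 without TNF-α 16. The log2 fold changes of Cebpb and Eif4ebp1 were -0.32 ± 0.16 and -0.34 ± 0.19 with all libraries, and -0.19 ± 0.12 and -0.08 ± 0.06 without TNF-α 16. Over the members the median was -0.12 and 27 of 33 were negative, against a median of -0.01 over all genes, but without TNF-α 16 the members' median was -0.01. No member stood wholly above or below in the 4 libraries with TMAO, where 1.31% of all genes were higher and 1.38% lower. With TNF-α present, Ddit4 had 90.6 and 88.7 CPM in combined libraries against 99.7 and 135 CPM in TNF-α libraries, at -0.38 ± 0.16 and an adjusted p of 0.569. Combined treatment against TNF-α called no member and 0% of all genes, and DESeq2 called none. edgeR gave 2 of 33 members an unadjusted p under 0.05, against 549 of 15613 genes. Besides Ddit4, the smallest p were those of Cebpb at -0.62 ± 0.23 and Ddit3 at -0.55 ± 0.24. Without TNF-α 16 the values shrank to -0.15 ± 0.09 for Ddit4, -0.36 ± 0.18 for Cebpb and -0.10 ± 0.13 for Ddit3. The median over the members was -0.16 with all libraries and 0.01 without TNF-α 16.

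The interaction, which asks whether TMAO altered the TNF-α effect, called no member and 0% of all genes, and DESeq2 called none. Over all libraries edgeR gave 0 members an unadjusted p under 0.05, against 184 of 15613 genes. For Ddit4 the interaction was 0.08 ± 0.23 (SE), with a 95% interval of -0.45 to 0.61. The value rests on which TNF-α library is kept: it was 0.31 ± 0.12 without TNF-α 16, with an unadjusted p of 0.0168 and an adjusted p of 0.999 in edgeR's test, and -0.09 ± 0.11 without TNF-α 14. The 3 members with the smallest p were Cebpb at -0.61 ± 0.32, Ddit3 at -0.61 ± 0.34 and Atf5 at -0.34 ± 0.23. Without TNF-α 16 they were at -0.34 ± 0.23, -0.16 ± 0.16 and -0.09 ± 0.12.

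Neighbouring genes of the pathway were described from other lists, for TNF-α averaged over TMAO. With all libraries 5.35% of all genes were called higher and 3.86% lower, and the larger shares without TNF-α 16 are given above. None of 13 eIF2 kinases, eIF2 and eIF2B subunits was called, at a median log2 fold change of -0.01, and none of 15 other tRNA synthetases, at 0.05. In both lists edgeR gave 0 genes an unadjusted p under 0.05 and DESeq2 called 0, while without TNF-α 16 edgeR called 1 of the 13 higher and 2 lower, and 1 of the 15 lower. Of 12 other amino acid and one-carbon enzymes 2 fell: Cbs, which makes cystathionine from homocysteine, by 0.86 ± 0.16 at only 1.59 to 4.10 CPM, and Glul, glutamine synthetase, by 0.37 ± 0.07, at a list median of -0.12. Of 10 other amino acid transporters 1 rose and 2 fell. Slc7a2, a carrier of arginine and other cationic amino acids, had 246 and 241 CPM in combined libraries and 242 and 130.0 CPM in TNF-α libraries, against 36.3 and 35.4 CPM in TMAO libraries and 32.0 and 37.7 CPM in control libraries. It rose by 2.59 ± 0.20 on the log2 scale, while its member relative Slc7a1 was not called at -0.21 ± 0.18, or at -0.03 ± 0.05 without TNF-α 16. Slc1a4, a carrier of alanine, serine and cysteine, fell by 0.94 ± 0.08, and Slc38a4, a neutral amino acid carrier of liver, fell by 0.71 ± 0.11. Of the 5 member transporters none was called with all libraries, and Slc7a5 and Slc1a5 were called lower without TNF-α 16.

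Of 15 genes of the ATF6 and IRE1 arms, Dnajc3, an inhibitor of PERK, fell by 0.32 ± 0.07, and the other 14 were not called. The list's median was -0.06 with all libraries and -0.10 without TNF-α 16, where the members' median was -0.09. The lower values without TNF-α 16 were thus not particular to the members. Without TNF-α 16, 2 of the 15 were called higher and 6 lower. Ddit4 is also a target of hypoxia-inducible factors and of p53. Of 14 hypoxia-induced genes tested, Ndrg1, Egln3 and Bnip3 rose with TNF-α, by 0.84 ± 0.06, 0.83 ± 0.08 and 0.84 ± 0.08, and all 14 had positive log2 fold changes with a median of 0.25. Without TNF-α 16, 8 of the 14 were called higher. With TMAO averaged over TNF-α their log2 fold changes were -0.54 ± 0.06, -0.60 ± 0.08 and -0.95 ± 0.08. The edgeR fit to all libraries called none of the 14, but gave 8 an unadjusted p under 0.05, against 453 of 15613 genes. DESeq2 called 3 of the 14 lower, against 0.0256% of all genes. The list's median was -0.25 with all libraries and -0.17 without TNF-α 16. Bnip3 had 15.8 and 15.9 CPM in combined libraries, 21.3 and 24.9 CPM in TNF-α libraries, 6.59 and 6.76 CPM in TMAO libraries and 16.9 and 17.5 CPM in control libraries. For both Ddit4 and Bnip3 the TMAO libraries were lowest and the TNF-α libraries highest. Combined libraries lay above control for Ddit4 and below it for Bnip3. Other genes of the list had other layouts, with Vegfa highest in control libraries and Pfkfb3 highest in combined libraries. Any link of Ddit4 to this list was not tested. Of 10 p53 targets 1, Perp, fell with TNF-α by 0.43 ± 0.09, and the median was 0.03. Without TNF-α 16, 1 of the 10 was called higher and 3 lower. All 12 targets of NF-κB rose with TNF-α, at a median of 1.54.

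Markers of the cells moved with TNF-α as well. The hepatoma list summed to 2419 to 2432 CPM in combined libraries and 2470 to 3261 CPM in TNF-α libraries, against 4754 to 4764 CPM in TMAO libraries and 4880 to 5161 CPM in control libraries. Alb, Afp, Hnf4a and Foxa2 fell (4 of 7 tested, and 6 of 7 without TNF-α 16), while Ttr, Apoa1 and Igf2 of that list were near 0 in every library. The 8 leukocyte markers summed to 13.2 to 14.4 CPM in combined libraries, 15.2 to 17.6 CPM in TNF-α libraries, 15.2 to 16.6 CPM in TMAO libraries and 16.5 to 18.3 CPM in control libraries, with Cd3e at 0 in each. Of the 3 tested, Csf1r was called lower with TNF-α, at 2.94 to 3.64 CPM with it and 6.62 to 7.81 CPM without it. The other 2 had positive log2 fold changes and were not called. The 8 fibroblast, stellate and endothelial markers summed to 1279 to 1313 CPM in combined libraries, 1326 to 1464 CPM in TNF-α libraries, 1650 to 1666 CPM in TMAO libraries and 1706 to 1806 CPM in control libraries, nearly all of it Dcn, with Col1a1 at 0.638 to 1.76 CPM. The part of these shifts in the members' values was not tested.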

How the data were processed

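Bulk mRNA of Hepa1-6 cells was sequenced from 8 libraries in 4 groups of 2. Per the labels' protocols, mRNA was taken with oligo beads, fragmented and sequenced as paired reads. The build was mm9, per the submitters' processing notes. Aligner, annotation and strand setting were not given in the sources used here. Whole-number counts per Ensembl gene identifier and TPM per gene symbol were deposited by the authors. Symbols, exon lengths and overlaps came from GENCODE M21 on GRCm38, and promoters from RefSeq. No deposited coordinates were used. Of the identifiers 54409 had a symbol and 37 had none. Where Ddit3 had 2 identifiers, the one with counts was used.

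Counts were tested with edgeR 4.0.16 in R 4.3.3: filterByExpr, TMM scaling, a robust glmQLFit of 4 group means to all 8 libraries (4 residual degrees of freedom) and glmQLFTest, with Benjamini-Hochberg adjustment over 15613 genes at 0.05. CPM use TMM-scaled library sizes. Log2 values per library use a prior count of 2. With 2 libraries against 2 no permutation test can reach 0.05, so none was run. The groups were taken from the titles. Depth of 24736746 to 30488605 counts puts 3 counts at 0.0993 to 0.124 CPM, a limit of counting error only. The test was tested on simulated data.

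The alternatives were DESeq2 1.42.0, its size factors (RLE), no filter, at least 1 CPM in 2 libraries, limma 3.58.1 on log2(TPM + 1) and log2(TPM + 0.1), a block for the numbers 14 and 16, fits on the 2 groups compared, and leaving out each library. A fit without both TNF-α 16 and control 14 was added after the data were seen. Figures were drawn with matplotlib 3.10.9 in Python 3.11.15.

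The members and the gene lists were chosen with earlier results of these data known, so no list test or list-wise p is given. Every share of all genes takes all tested genes, with no match to the members for expression level. Values in every library are given for members called in a contrast, for Eif2ak3, Atf4, Ddit3, Atf3, Trib3, Asns, Chac1, Ddit4, Sesn2, Fgf21 and Gdf15, and for the 3 members with the smallest p in each contrast. Other members are given by range, count or fold change, and those named beyond this (Ppp1r15a, Phgdh, Psat1, Slc1a5, Slc7a1 and others) were chosen after their values were seen. Of every other list at most the 4 genes with the smallest p are named.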

Additional observations from a re-analysis of the deposited data

How the results depend on the processing

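Each count of members called is followed by the share of all genes called. DESeq2 called 2 members for TNF-α against control (6.15%), 2 for both agents against control (5.76%) and 2 for both against TMAO (5.82%), where edgeR called 0, 0 and 1. With no filter on low counts 3 were called for TNF-α against control (3.18%), and with at least 1 CPM in 2 libraries 2 for both against TMAO (4.48%). Fits on only the groups compared called 8 members for both against control (15.9%) and 20 for both against TMAO (31.9%). Without both TNF-α 16 and control 14, an alternative chosen after seeing the data, 3 members were called for TMAO against control (0.295%), 12 for TNF-α against control (20.1%), 13 for both against control (22.8%), 20 for both against TMAO (29.7%), 20 for TNF-α averaged (34%) and 2 for TMAO averaged (0.388%). Leaving out 1 library at a time gave 0 to 1 calls for TMAO against control, 0 to 20 for TNF-α against control, 0 to 11 for both against control, 0 to 24 for both against TNF-α, 0 to 10 for both against TMAO, 0 to 19 for TNF-α averaged, 0 to 21 for TMAO averaged and 0 to 21 for the interaction. The highest counts came without TNF-α 14 or TNF-α 16, the widest pair, where the share of all genes called reached 0.0552% for TMAO against control, 48.9% for TNF-α against control, 18.4% for both against control, 49.4% for both against TNF-α, 16% for both against TMAO, 45.6% for TNF-α averaged, 44.8% for TMAO averaged and 35.5% for the interaction. A lone library is then assumed to vary like the other groups. With TNF-α 14 left out, the 21 members called for TMAO averaged and the 24 for both against TNF-α rest on TNF-α 16 as the 1 library of its group. The cause of each move was not tested.

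Ddit4, Nupr1, Wars and Sesn2 kept their directions under every alternative for TNF-α averaged, at log2 fold changes of 0.63 to 0.85, 0.63 to 1.01, -0.49 to -0.36 and -0.34 to -0.28. Sesn2 was not called with no filter (adjusted p of 0.137 in edgeR's test), where Cebpb was called higher. Nor was Sesn2 called by limma on log2(TPM + 1) and log2(TPM + 0.1) (adjusted p of 0.115 and 0.114). Wars was not called by limma on either (adjusted p of 0.0605 and 0.0631), where limma called Asns and Gars lower. The labels do not say that the numbers 14 and 16 pair libraries, and the differences of library 16 minus 14 correlated between groups at -0.42 to 4.34e-05 over 15613 genes, with TNF-α and control at -0.42. With the numbers as a replicate block, edgeR called 0 members for both against TMAO (2.07%) and 2, Ddit4 and Wars, for TNF-α averaged (6.48%), and 0 in the other contrasts as before.

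Pairs of libraries limit what can be seen: the Ddit4 interaction had a 95% interval of -0.45 to 0.61 with all libraries and was 0.31 ± 0.12 (SE) without TNF-α 16, and members such as Chac1 and Trib3 rest on 4.63 to 14.8 CPM.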
